A study of Rattus norvegicus with 82 samples.

Results

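The genes described here build, anchor or respond to the actin cytoskeleton in the rat heart, and many are known targets of the transcription factor SRF or of the coactivator YAP. The list of 39 genes was matched by symbol to the annotation of the Affymetrix rat array, and where a gene had several probe sets the brightest on average across the 82 arrays stood for it. Of the 39, 36 were found on a probe set with a single symbol, and 36 passed the filter on low values, out of 11319 genes tested and 14217 genes with a symbol. Actb, Cfl1 and Tmsb10 were found only on probe sets that carry several symbols and were not analysed here. Ccn1 and Ccn2, also known as Cyr61 and Ctgf, were both found under their current names.

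Actin exists as free monomers and as filaments, and the balance between them is read out in the nucleus. Monomers hold back the MRTF coactivators of SRF, so filament assembly, usually through the GTPase RhoA, frees MRTF to switch on SRF targets, which include actins, filamins, calponins and SRF itself. YAP and its relative TAZ respond to the same tension and to the Hippo kinases, bind TEAD factors and switch on genes such as Ccn1, Ccn2 and Amotl2. Microtubules are coupled to this system because they hold the RhoA activator Arhgef2, and in the heart the same genes are known for their response to stretch and load.

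Hearts of male Wistar (Crl:Wi(Han)) rats were taken 6 h or 24 h after an intravenous injection of vinblastine, vincristine or colchicine, which all bind tubulin, or of 0.9% saline, in which the compounds were also given. The doses were 0.5 and 3 mg/kg for vinblastine, 0.1 and 1 mg/kg for vincristine and 0.2 and 2 mg/kg for colchicine, so doses differ between the compounds. Each of the 14 groups had 6 arrays, 1 per animal, except the 2 groups given vincristine at 0.1 mg/kg, which had 5 each. Whole heart RNA was measured, so that fewer cells of a type and less RNA per cell cannot be told apart in any result below. Of 12 heart muscle markers 11 were on the array and all 11 were tested, and their summed intensity lay between 175774 and 233922 in every array. Values are linear intensities, changes are differences of mean log2(intensity + 16) with their standard error (SE), and folds are taken on that scale, which understates the change of dim genes. A change is called where limma's moderated test gave an adjusted p under 0.05 over the 11319 genes. Comparisons of different compounds at one time share their saline animals, so their values are given side by side.

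Over all genes, 10 arrays resembled some other group more closely than the one named on their label, the distances differing by a factor over 1.3. Vinblastine accounts for 3 of them, namely replicate 1 of 3 mg/kg and replicate 6 of 0.5 mg/kg, both 6 h, and replicate 5 of 0.5 mg/kg, 24 h. Vincristine accounts for 2, replicate 3 of 1 mg/kg, 6 h, and replicate 5 of 0.1 mg/kg, 24 h. The other 5 had colchicine: replicates 1 and 6 of 0.2 mg/kg and replicate 4 of 2 mg/kg at 6 h, and replicate 6 of 0.2 mg/kg and replicate 1 of 2 mg/kg at 24 h. Vincristine 1 mg/kg replicate 3, 6 h, lay nearest to saline, 24 h. Colchicine 2 mg/kg replicate 4, 6 h, lay nearest to vinblastine 0.5 mg/kg, 24 h. Colchicine 2 mg/kg replicate 1, 24 h, lay nearest to colchicine 0.2 mg/kg, 24 h. A further 33 arrays also lay nearer another group, by a smaller factor, and were not set apart. The nearest of all other groups was taken, so a small factor can arise where groups differ little, as saline and the lower doses do. Whether any label is wrong was not tested. All arrays are used as labelled unless a value is said to be without the 10. Those 10 were picked from these same values, so leaving them out tends to narrow the spread within groups. Calls made without them are therefore no independent support.

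Promoters are shown for the 3 members with the largest rises. Also shown are 3 of the 4 genes whose window holds an exact match to the SRF motif. SRF and TEAD are the factors that read the actin state. RefSeq promoter windows of the GRCr8 build were found for 32 of the 36 members, in 38 windows, since 4 members have 2 windows and 1 has 3. Each window runs from 250 bases before to 50 bases after the annotated start, and is written 5′ to 3′ on the strand of the gene. Capitals mark exact matches to the CArG box, the SRF binding motif, taken as CCWWWWWWGG where W is A or T. They also mark the MCAT motif, CATTCC on either strand (GGAATG), which TEAD factors bind. Sites that depart from these patterns were not sought, so a window without a match may still hold a variant site. The members with the largest rises are shown first, each with an MCAT match:

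Ccn1, chr2:237225640-237225939, minus strand: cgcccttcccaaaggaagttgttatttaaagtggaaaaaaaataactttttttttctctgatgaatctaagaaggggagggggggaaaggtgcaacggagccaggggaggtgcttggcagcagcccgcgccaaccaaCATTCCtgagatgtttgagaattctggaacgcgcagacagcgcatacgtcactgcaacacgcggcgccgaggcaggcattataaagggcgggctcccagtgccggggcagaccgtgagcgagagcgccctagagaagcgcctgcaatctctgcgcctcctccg

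Ccn2, chr1:22624565-22624864, minus strand: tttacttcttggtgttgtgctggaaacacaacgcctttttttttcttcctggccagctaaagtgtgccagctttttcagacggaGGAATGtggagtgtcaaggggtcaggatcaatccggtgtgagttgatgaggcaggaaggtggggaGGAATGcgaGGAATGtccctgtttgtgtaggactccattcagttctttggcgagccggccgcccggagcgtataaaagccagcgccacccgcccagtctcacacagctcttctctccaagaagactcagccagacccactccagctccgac

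Flnc, chr4:58999297-58999596, plus strand: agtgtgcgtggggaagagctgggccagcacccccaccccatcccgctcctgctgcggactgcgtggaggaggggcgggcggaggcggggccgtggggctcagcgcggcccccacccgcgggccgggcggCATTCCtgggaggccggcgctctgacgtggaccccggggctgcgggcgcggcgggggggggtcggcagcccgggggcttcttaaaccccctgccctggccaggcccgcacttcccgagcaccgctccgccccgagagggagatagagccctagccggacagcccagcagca

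The next windows hold a CArG box and belong to a cytoplasmic actin, to SRF itself and to its cofactor Fhl2, which has 2 windows:

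Actg1, chr10:106120902-106121201, minus strand: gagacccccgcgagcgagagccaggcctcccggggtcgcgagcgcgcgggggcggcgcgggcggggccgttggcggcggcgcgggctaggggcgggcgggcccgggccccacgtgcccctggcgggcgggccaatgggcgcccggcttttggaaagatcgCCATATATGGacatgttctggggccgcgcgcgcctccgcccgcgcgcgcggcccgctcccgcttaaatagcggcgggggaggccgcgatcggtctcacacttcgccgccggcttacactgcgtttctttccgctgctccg

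Srf, chr9:21923826-21924125, plus strand: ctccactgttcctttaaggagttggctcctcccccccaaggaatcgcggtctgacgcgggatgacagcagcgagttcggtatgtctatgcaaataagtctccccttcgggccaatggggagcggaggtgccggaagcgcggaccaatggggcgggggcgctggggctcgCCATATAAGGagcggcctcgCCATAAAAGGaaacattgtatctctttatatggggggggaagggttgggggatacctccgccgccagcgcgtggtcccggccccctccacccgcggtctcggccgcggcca

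Fhl2, first window, chr9:52923277-52923576, minus strand: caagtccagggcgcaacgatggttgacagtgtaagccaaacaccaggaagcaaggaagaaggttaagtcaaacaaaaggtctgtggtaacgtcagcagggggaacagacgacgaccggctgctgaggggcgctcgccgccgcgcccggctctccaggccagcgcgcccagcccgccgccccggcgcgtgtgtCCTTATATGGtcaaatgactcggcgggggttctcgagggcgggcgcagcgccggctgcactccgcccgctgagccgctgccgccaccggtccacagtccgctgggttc

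Fhl2, second window, chr9:52954491-52954790, minus strand: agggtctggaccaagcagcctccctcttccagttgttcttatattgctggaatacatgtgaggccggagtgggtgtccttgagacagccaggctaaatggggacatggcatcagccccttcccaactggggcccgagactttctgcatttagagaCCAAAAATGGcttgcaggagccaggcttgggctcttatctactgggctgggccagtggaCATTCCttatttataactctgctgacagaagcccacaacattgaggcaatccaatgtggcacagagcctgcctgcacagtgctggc

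The MCAT match of Ccn1 begins 113 bases before the start and that of Flnc 121 bases before it. Ccn2 holds 3, at 166, 101 and 92 bases. The CArG box of Actg1 begins 90 bases before the start, those of Srf 81 and 61 bases before it, and those of Fhl2 58 bases before the start in the first window and 95 in the second, which also has an MCAT match at 36 bases. Cnn2 also holds a CArG box, 71 bases before its start. In all, 5 of 38 member windows (13.2%) held an exact match to the CArG box, against 1.64% of all 33469 windows. An MCAT match was held by 13 of 38 (34.2%), against 14.2%. No 2 matches in a member overlapped. The list was drawn up from known SRF and YAP targets among others, so these larger shares may follow from that choice. Windows of the same gene were counted apart, and Fhl2 counts with both of its own. A match is a stretch of letters, and no binding was measured here.

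At 6 h the higher dose of each compound raised a large share of the members, led by the secreted proteins Ccn1 and Ccn2 and the filament crosslinker Flnc. The members were chosen with earlier results of these data known, so their excess over the background, here and below, is no independent evidence. After vinblastine at 3 mg/kg 20 of 36 members rose, against a background of 15.7% of all genes tested, and 1 fell, against 7.67%. Vincristine at 1 mg/kg raised 11 members, where the background was 2.05%, and lowered 0, where it was 1.25%. Colchicine at 2 mg/kg raised 11, where the background was 4.89%, and lowered 0, where it was 4.37%. The median change over the 36 members was 0.33, 0.28 and 0.16 for vinblastine, vincristine and colchicine, while the median over all genes tested was 0.01, 0.01 and 0. Without the 10 arrays the counts of risen members were 16, 16 and 15 and those of fallen members 1, 0 and 3, against backgrounds for rises of 10.3%, 7.2% and 9.47%. A fit of the vinblastine and saline groups alone gave 11 risen and 0 fallen. Single arrays decided the counts for vincristine and colchicine: without vincristine 1 mg/kg replicate 4 or 5 the count was 3 or 4, without saline replicate 3 or 6 it was 6, and the count for colchicine was 7 without saline replicate 6 or colchicine 2 mg/kg replicate 6.

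**Figure D1:**
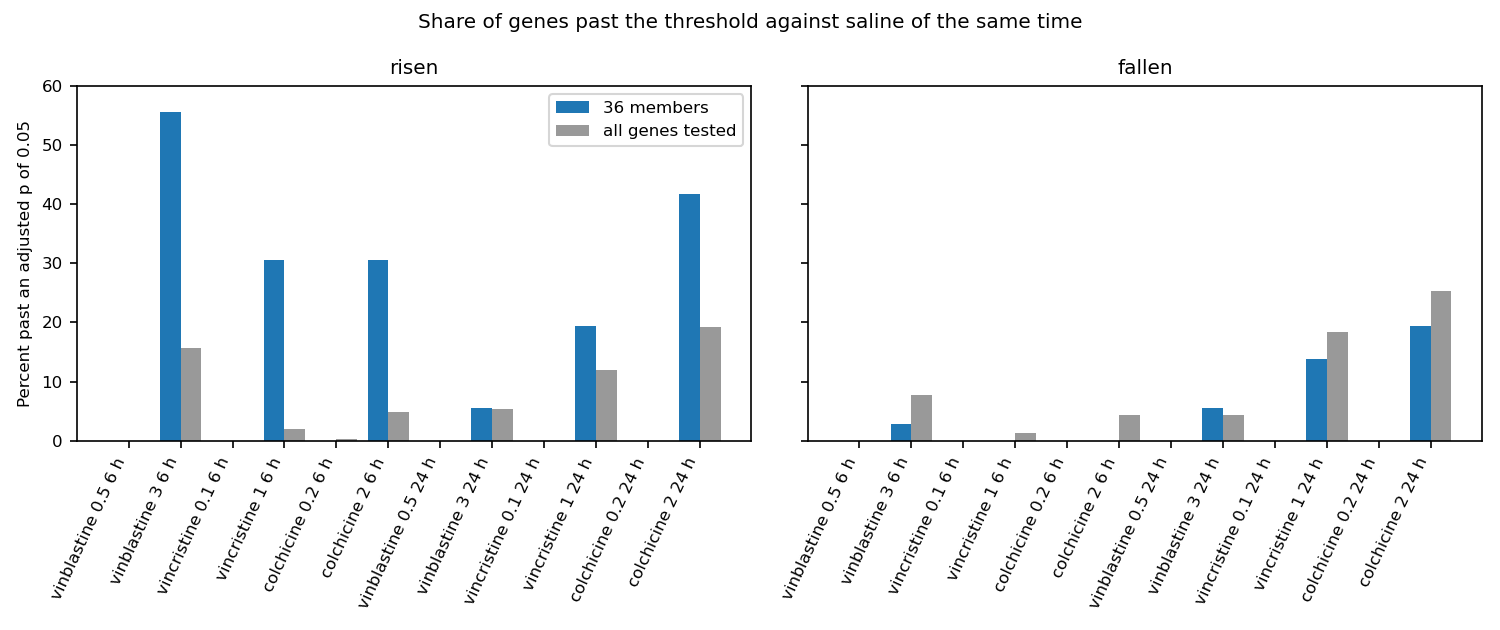
Percent of the 36 members (blue) and of all 11319 genes tested (grey) that rose (left) or fell (right) past an adjusted p of 0.05, for each of 12 comparisons with saline of the same time; labels give the compound, the dose in mg/kg and the time. At 6 h the share of members that rose was 55.6% after vinblastine at 3 mg/kg and 30.6% after vincristine at 1 mg/kg and colchicine at 2 mg/kg, above the grey bars, and the lower doses have no blue bar. The members were chosen with earlier results of these data known.

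**Figure D2:**
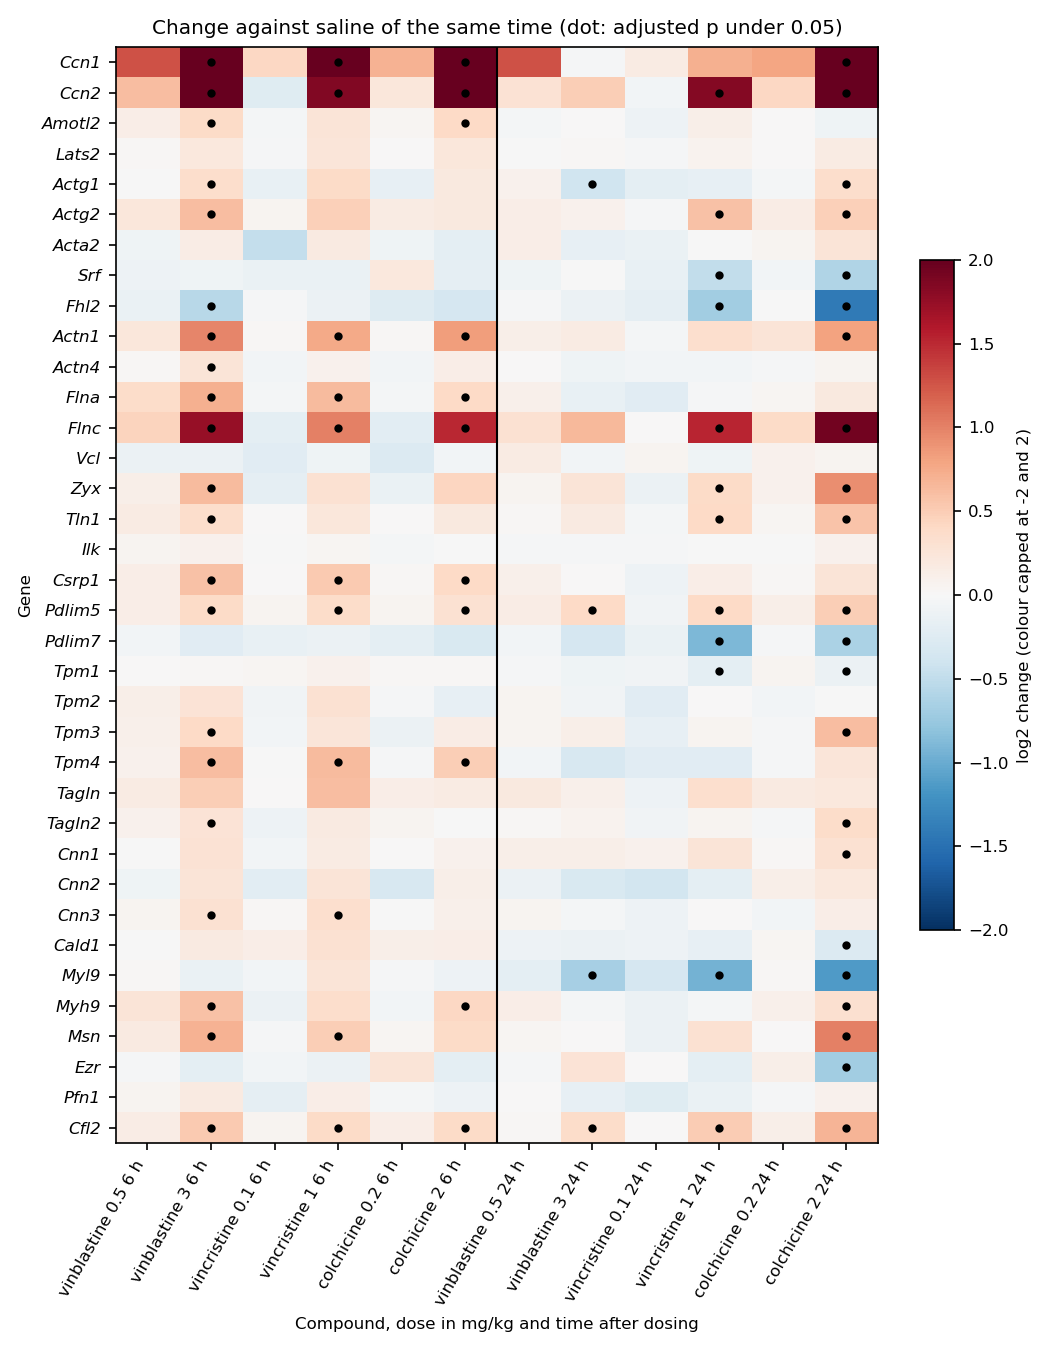
The log2 change of each of the 36 members (rows) against saline of the same time (columns; compound, dose in mg/kg, time), with red for higher and blue for lower than saline; colours stop at -2 and 2, and a dot marks an adjusted p under 0.05. Dots crowd the higher-dose columns, with Ccn1, Ccn2 and Flnc darkest red and Fhl2 (-1.42) and Myl9 (-1.13) among the darkest blue after colchicine at 24 h.

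Ccn1 and Ccn2 are matricellular proteins that signal through integrins and are standard readouts of YAP activity. Ccn1 intensity in the saline animals at 6 h ran from 34.8 through a median of 42.7 to 77.1. It ran from 49.4 through 335 to 1375 after vinblastine at 3 mg/kg, from 141 through 342 to 3184 after vincristine at 1 mg/kg, and from 95.3 through 675 to 1281 after colchicine at 2 mg/kg. The vincristine and colchicine groups lay wholly above saline, whereas 2 vinblastine animals, at 49.4 and 61, lay within its range. The log2 changes were 2.07 (SE 0.71, adjusted p = 0.0252), 2.70 (SE 0.71, adjusted p = 0.0193) and 3.12 (SE 0.71, adjusted p = 0.00178). The vinblastine call was lost without vinblastine replicate 1 (adjusted p = 0.144) or replicate 4 (0.0562) and without the 6 arrays whose description ends in _2 (0.183). The vincristine call was lost without vincristine replicate 4 (0.142), the animal at 3184, or replicate 5 (0.0581). Without the 10 arrays the changes were 1.60, 2.98 and 3.59, each called.

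Ccn2 was the steadier of the pair. Its intensity in saline at 6 h ran from 417 through 611 to 709. After vinblastine at 3 mg/kg it ran from 2107 through 2486 to 4594, with no overlap with saline. It ran from 592 through 2714 to 4177 after vincristine at 1 mg/kg and from 494 through 2972 to 3821 after colchicine at 2 mg/kg, and in each of these groups a single animal, vincristine replicate 3 and colchicine replicate 4, lay in the saline range. Both of those arrays are among the 10 set apart above. The changes were 2.16 (4.46-fold, SE 0.40, adjusted p = 7.08e-05), 1.85 (3.60-fold, SE 0.40, adjusted p = 0.00907) and 2.00 (4.01-fold, SE 0.40, adjusted p = 0.000485), and without the 10 arrays 2.00, 2.21 and 2.45. Without vincristine replicate 4 the vincristine call was lost (adjusted p = 0.0571).

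**Figure D3:**
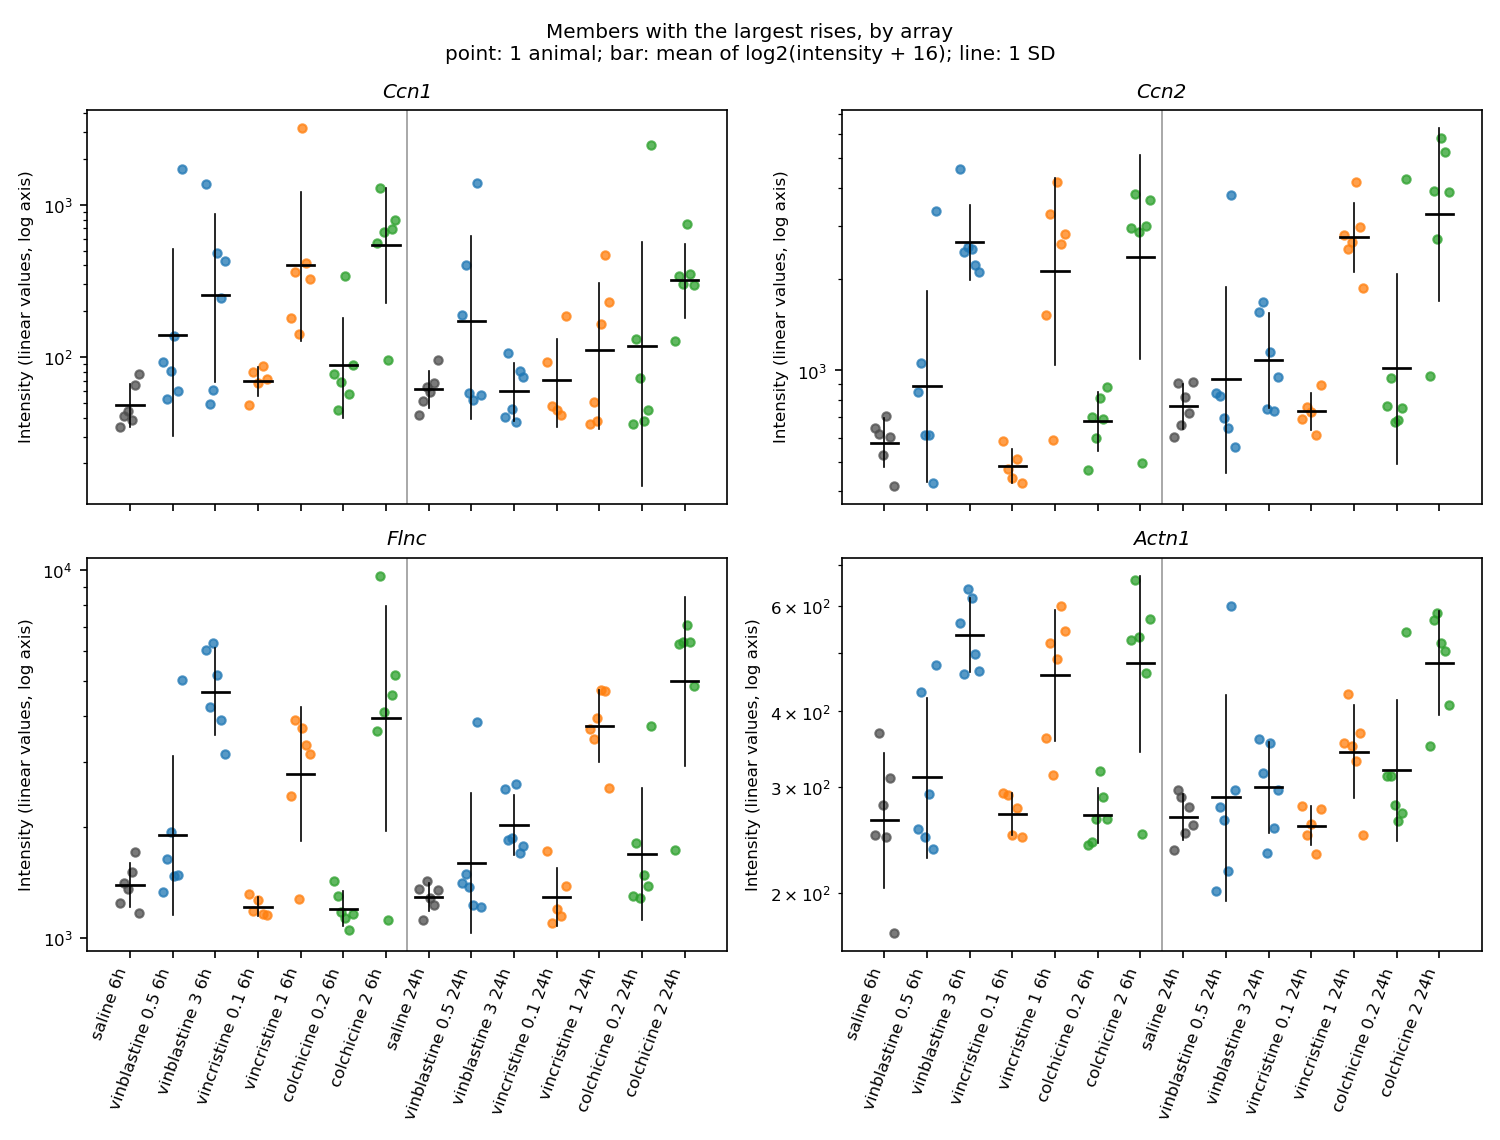
Intensity (linear values on a log axis) of Ccn1, Ccn2, Flnc and Actn1 in every animal of the 14 groups, with 6 h left and 24 h right of the grey line; points are animals, bars the mean of log2(intensity + 16) and vertical lines 1 SD of it. Some higher-dose groups lie wholly above saline, such as Flnc after each compound at 24 h. Others overlap it through a single low animal, such as Ccn2 after vincristine at 1 mg/kg, 6 h (592). Ccn1 after vinblastine at 3 mg/kg, 24 h (37.3 to 107), spans the saline range (41.6 to 95.6). Some lower-dose groups hold a single high animal, such as the Ccn1 value of 2456 after colchicine at 0.2 mg/kg, 24 h.

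Among the crosslinkers, which bundle filaments or tie them into nets, 4 of 4 rose after vinblastine at 6 h, against a background of 15.7%. After vincristine and after colchicine at 6 h 3 of 4 rose, against backgrounds of 2.05% and 4.89%. Flnc, the filamin of striated muscle, had saline intensities from 1170 through 1384 to 1717. They ran from 3159 through 4702 to 6318 after vinblastine, from 1274 through 3254 to 3899 after vincristine and from 1122 through 4339 to 9625 after colchicine. Only the vinblastine group was clear of saline, and the low animals were again vincristine replicate 3 and colchicine replicate 4. Flnc changed by 1.74 (SE 0.29, adjusted p = 1.48e-05), 1.00 (SE 0.29, adjusted p = 0.0366) and 1.5 (SE 0.29, adjusted p = 0.000348). For vincristine this call was lost in 8 of 12 fits that left out an animal of either group, with an adjusted p of up to 0.139. Without the 10 arrays, which include the low vincristine animal, the change was 1.22 (adjusted p = 1.07e-08). A second probe set of Flnc changed by 1.61, 1.01 and 1.43, the middle value not called (adjusted p = 0.0586).

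Actn1, an alpha-actinin of non-muscle cells, ran in saline from 171 through 265 to 369, and at the higher doses from 461 through 530 to 639 (vinblastine), 314 through 504 to 598 (vincristine) and 250 through 529 to 661 (colchicine). The vinblastine animals all lay above saline, and the other groups overlapped it. The changes were 0.98 (SE 0.18, adjusted p = 5.12e-05), 0.76 (SE 0.18, adjusted p = 0.0122) and 0.83 (SE 0.18, adjusted p = 0.00105). Its second probe set was called in the same direction each time, at 1.05, 0.60 and 0.77. Flna, the filamin of non-muscle cells, rose by 0.71, 0.63 and 0.40, and Actn4 rose by 0.26 after vinblastine. The colchicine call of Flna was lost in 7 of 12 fits without an animal (adjusted p up to 0.128).

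Of the adhesion proteins, Zyx and Tln1 rose after vinblastine at 6 h, and Vcl and Ilk were not called with any compound at either time. Zyx, a LIM protein that moves to strained filaments, ran from 451 through 638 to 705 in saline and from 771 through 994 to 1126 after vinblastine, a rise of 0.63 (SE 0.15, adjusted p = 0.00156) with no overlap. After colchicine Zyx stood just outside the threshold at 0.43 (adjusted p = 0.0621), and without the 10 arrays it was called at 0.57. Tln1, which links integrins to actin, rose by 0.35 (adjusted p = 0.00303). The other probe sets of Vcl, the vinculin that reinforces that link, gave 0.38 and -0.43 after vinblastine at 6 h, neither of them called.

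LIM domain proteins bind strained actin or the muscle Z-disc. Csrp1 rose by 0.59, 0.52 and 0.40 after vinblastine, vincristine and colchicine at 6 h. Saline animals had Csrp1 intensities from 594 through 763 to 855, and the vinblastine group, from 924 through 1092 to 1360, and the vincristine group, from 918 through 1081 to 1211, lay clear of them. Pdlim5, a Z-disc scaffold, rose by 0.38, 0.37 and 0.31. Of its calls, the vinblastine value was lost without the 10 arrays (0.24, adjusted p = 0.0697), and the vincristine and colchicine values when all its probe sets were averaged (adjusted p = 0.145 and 0.166). Pdlim7, another scaffold of the family, was not called at 6 h, but without the 10 arrays it was called down after colchicine (-0.36, adjusted p = 0.0265).

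Within the filament proteins themselves the rises were small. Actg1, the cytoplasmic gamma actin, rose by 0.35 after vinblastine (adjusted p = 0.033), a call lost without the 10 arrays (0.30, adjusted p = 0.0745), under other settings, and in 4 of 12 fits that left out an animal of either group (adjusted p up to 0.18). Actg2, the smooth muscle gamma actin, rose by 0.61 (adjusted p = 0.00512) from a dim saline range of 60.2 through 83.1 to 89.5. Acta2, the smooth muscle alpha actin, was not called in any comparison with saline, and its animals spread widely, from 476 through 826 to 860 in saline at 6 h. Tropomyosins cover the filament and tune which motors and severing factors reach it. Tpm4, the form of non-muscle cells, rose by 0.61, 0.63 and 0.49 with the respective compounds, from a saline range of 1236 through 1702 to 2096 to ranges of 1991 through 2701 to 3080, 1920 through 2908 to 3167 and 1745 through 2441 to 3259, so that the groups overlapped. Tpm3 rose by 0.40 after vinblastine alone among the 6 h calls, and the call was lost without the 10 arrays (0.25, adjusted p = 0.239). Tpm1, the main tropomyosin of the heart, changed by less than 0.10 at its main probe set, while a dim probe set of the gene fell by 0.94 after vinblastine and 0.97 after colchicine.

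Calponins and transgelins stiffen actomyosin in smooth muscle and other cells. Cnn3 rose by 0.31 after vinblastine and 0.34 after vincristine. Its vinblastine call was lost in 3 settings (adjusted p up to 0.0754) and in 1 of 12 fits without an animal. Its vincristine call was lost in 2 settings (adjusted p up to 0.102) and in 4 of 12 such fits. Tagln2 rose by 0.27 after vinblastine, a call lost without the 10 arrays (adjusted p = 0.117), in 4 further settings and in 5 of 12 fits without an animal. The markers of smooth muscle in this family lay outside the threshold: Tagln at 0.49 (adjusted p = 0.0706) after vinblastine and 0.62 (adjusted p = 0.0755) after vincristine, and Cnn1 at 0.29 (adjusted p = 0.0605) after vinblastine. Tagln was called after vincristine once the 10 arrays were left out (0.60, adjusted p = 0.0382). Cnn2, whose window holds a CArG box, was not called against saline at either time.

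Myh9, the heavy chain of non-muscle myosin, rose by 0.58 after vinblastine and 0.42 after colchicine, from a saline range of 1025 through 1173 to 1348 to 1455 through 1696 to 2116 and 1298 through 1547 to 2154. Msn, the moesin that ties actin to the membrane, rose by 0.70 after vinblastine and 0.49 after vincristine. The vincristine call of Msn was lost with probe sets averaged (adjusted p = 0.164), under quantile normalization (0.0761) and in 7 of 12 fits without an animal. In the vinblastine group 1 animal, replicate 1, had a Msn intensity of 5220 and the next highest 2361, and without the 10 arrays the change was 0.47. Its relative Ezr was not called at 6 h, but without the 10 arrays it was called down after colchicine (-0.32, adjusted p = 0.0355). Cfl2, the muscle cofilin that severs filaments, rose by 0.52, 0.39 and 0.39, and its second probe set by 0.52, 0.46 and 0.54. Its vincristine call was lost in 6 of 12 fits without an animal (adjusted p up to 0.141). Pfn1, which loads actin monomers, was not called.

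SRF itself and its cofactor did not rise. Srf was not called at 6 h, with changes of -0.09, -0.13 and -0.18, and Fhl2, a LIM protein abundant in heart muscle that binds SRF, fell after vinblastine by 0.55 (SE 0.18, adjusted p = 0.0189). That fall was not called without vinblastine replicate 1 (adjusted p = 0.195), the animal at 3799 against 7160 to 9968 in the others. Without all 10 arrays Fhl2 was called down after vinblastine (-0.34) and colchicine (-0.43). Amotl2, a YAP target that binds YAP, rose by 0.38 after vinblastine and 0.40 after colchicine, and Lats2, a Hippo kinase and YAP target, changed by 0.21, 0.24 and 0.22 with no call. The Amotl2 calls were lost when only the compared groups were modelled (adjusted p = 0.126 and 0.12) and the vinblastine call also under quantile normalization (0.0525), and without the 10 arrays Lats2 was called after colchicine (0.27, adjusted p = 0.045).

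At 24 h colchicine at 2 mg/kg had 15 members risen against a background of 19.3% and 7 fallen against 25.3%. Vincristine at 1 mg/kg had 7 risen, where the background was 12%, and 5 fallen, where it was 18.4%. Vinblastine at 3 mg/kg had 2 risen, where the background was 5.29%, and 2 fallen, where it was 4.28%. The median member changed by -0.01, 0 and 0.23 for vinblastine, vincristine and colchicine. The shares of members that rose, 5.56%, 19.4% and 41.7%, can be read against those backgrounds, and the shares that fell, 5.56%, 13.9% and 19.4%, were near or below theirs. Without the 10 arrays 3 members rose and 4 fell after vinblastine (8.01% and 7.75% of all genes), 9 and 5 after vincristine (14.4% and 20.5%), and 17 and 7 after colchicine (22.4% and 28.2%).

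Of the members that had led at 6 h, Flnc and Ccn2 were still high at 24 h after vincristine and colchicine. Ccn2 in saline at 24 h ran from 603 through 770 to 916. It ran from 734 through 1051 to 1683 after vinblastine, from 1869 through 2721 to 4187 after vincristine and from 961 through 3881 to 5850 after colchicine, and the last 2 groups had no animal in the saline range. The changes were 0.49 with no call, 1.83 (SE 0.40, adjusted p = 0.000271) and 2.08 (SE 0.40, adjusted p = 1.58e-05). Flnc ran from 1123 through 1315 to 1433 in saline, from 1702 through 1862 to 2622 after vinblastine, from 2553 through 3826 to 4723 after vincristine and from 1739 through 6331 to 7092 after colchicine. All 3 groups lay above saline. Flnc changed by 0.65 (SE 0.29, adjusted p = 0.161), 1.53 (SE 0.29, adjusted p = 2.88e-05) and 1.93 (SE 0.29, adjusted p = 8.87e-08), and without the 10 arrays the vinblastine change, still 0.65, was called (adjusted p = 0.000884). Ccn1 was called only for colchicine, at 2.11 (adjusted p = 0.0107), where animals ran from 127 through 321 to 743 against 41.6 through 61.2 to 95.6 in saline.

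Cfl2 and Pdlim5 were called up with each compound at 24 h. Cfl2 animals ran from 3316 through 3514 to 3679 in saline, 3987 through 4586 to 5162 after vinblastine, 4634 through 4922 to 5453 after vincristine and 4060 through 5764 to 6823 after colchicine. No treated animal fell within the saline range, and the changes were 0.36, 0.50 and 0.68. Pdlim5, likewise without overlap, rose by 0.40, 0.40 and 0.49. A dimmer probe set of the gene, with a mean intensity of 103, was called after vincristine (0.77) and colchicine (1.43) and not after vinblastine, and the vinblastine call was lost when probe sets were averaged (adjusted p = 0.137).

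Colchicine at 24 h raised further members of the adhesion, membrane and tropomyosin groups. Msn ran from 1425 through 1531 to 1845 in saline and from 1872 through 3387 to 4151 after colchicine, a rise of 1.01 (2.01-fold, SE 0.14, adjusted p = 1.78e-08) with no overlap, and its second probe set rose by 1.16. Zyx rose by 0.93 after colchicine, from a saline median of 609 to 1323, and by 0.39 after vincristine (adjusted p = 0.0472), a call lost in 10 of 12 fits without an animal of either group. Tln1 rose by 0.57 and 0.40 with these compounds. Actn1 rose by 0.81 after colchicine, Tpm3 by 0.62, Tagln2 by 0.37, Myh9 by 0.32 and Cnn1 by 0.31. Actg1 rose by 0.35 after colchicine and fell by 0.40 after vinblastine, where animals ran from 6068 through 7094 to 8280 against 7574 through 9603 to 11081 in saline.

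The members that fell at 24 h with vincristine and with colchicine were Myl9, Fhl2, Pdlim7, Srf and Tpm1, and Myl9 also fell with vinblastine. Myl9, the regulatory light chain of smooth and non-muscle myosin, ran in saline from 1401 through 1527 to 2005. It ran from 828 through 981 to 1312 after vinblastine and from 659 through 799 to 1013 after vincristine, both wholly below saline. After colchicine it ran from 417 through 637 to 1588, where 5 animals lay between 417 and 792 and colchicine replicate 1, one of the 10 arrays, lay within the saline range. Myl9 fell by 0.67 (SE 0.17, adjusted p = 0.00617), 0.94 (SE 0.17, adjusted p = 1.53e-05) and 1.13 (SE 0.17, adjusted p = 1.07e-07), and by 1.36 after colchicine without the 10 arrays.

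Fhl2 had saline intensities from 11005 through 11908 to 12987 at 24 h, and 10383 through 10811 to 12168 after vinblastine, a change of -0.11 with no call. It ran from 6503 through 7453 to 8430 after vincristine, all below saline, and from 2300 through 4046 to 12022 after colchicine, where replicate 1 at 12022 was again like saline and the next highest animal was 5284. Fhl2 fell by 0.70 (SE 0.18, adjusted p = 0.0016) and 1.42 (SE 0.18, adjusted p = 1.14e-09), and by 1.70 after colchicine without the 10 arrays. The second probe set of Fhl2 fell by 0.50 and 1.13. Srf in saline ran from 559 through 754 to 797, and from 388 through 520 to 578 after vincristine and 367 through 472 to 598 after colchicine. Each of these groups overlapped saline only through saline replicate 6, at 559, and Srf fell by 0.50 (adjusted p = 0.000282) and 0.60 (adjusted p = 4.97e-06). Its 2 dimmer probe sets gave changes between -0.25 and -0.07, of which -0.25 after vincristine was called.

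Pdlim7 fell by 0.90 after vincristine (SE 0.13, adjusted p = 1.28e-07) and by 0.64 after colchicine (SE 0.13, adjusted p = 3.1e-05), and its change of -0.33 after vinblastine was not called (adjusted p = 0.0936). Saline animals ran from 1028 through 1220 to 1473, vincristine animals from 475 through 660 to 794 and colchicine animals from 548 through 734 to 1241. The probe sets of Pdlim7 disagree: a dimmer set, with a mean intensity of 216 over all arrays, rose by 0.83 after colchicine at 24 h (adjusted p = 4.58e-06) and by 0.52 after vinblastine at 6 h. Averaged, the 2 probe sets gave 0.10 after colchicine (adjusted p = 0.425), so the direction for the gene is not settled. Ezr fell by 0.70 after colchicine (adjusted p = 6.74e-06), in the group in which its relative Msn rose. Cald1, which holds actomyosin in check, fell by 0.27 after colchicine (adjusted p = 0.0278). That call was lost in 3 settings, among them probe sets averaged (-0.11, adjusted p = 0.116), and in 5 of 12 fits without an animal. Tpm1 fell by 0.20 after vincristine and 0.12 after colchicine (adjusted p = 0.0469). The Tpm1 calls were lost with probe sets averaged (adjusted p = 0.276 and 0.15), and the colchicine call in 4 further settings, with an adjusted p of up to 0.146.

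Leaving out each animal in turn showed which calls against saline rest on single animals. After vinblastine 13 of 21 calls at 6 h and 3 of 4 at 24 h held in every such fit, after vincristine 3 of 11 and 11 of 12, and after colchicine 5 of 11 and 17 of 22. The 3 calls that held after vincristine at 6 h were Csrp1, Flna and Tpm4, and the 5 after colchicine were Ccn1, Ccn2, Flnc, Actn1 and Cfl2. At 24 h Actg1 lost its call in 5 fits after vinblastine, Zyx in 10 after vincristine, and Tpm1, Cald1, Myh9, Actg1 and Cnn1 in 3 to 6 each after colchicine.

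**Figure D4:**
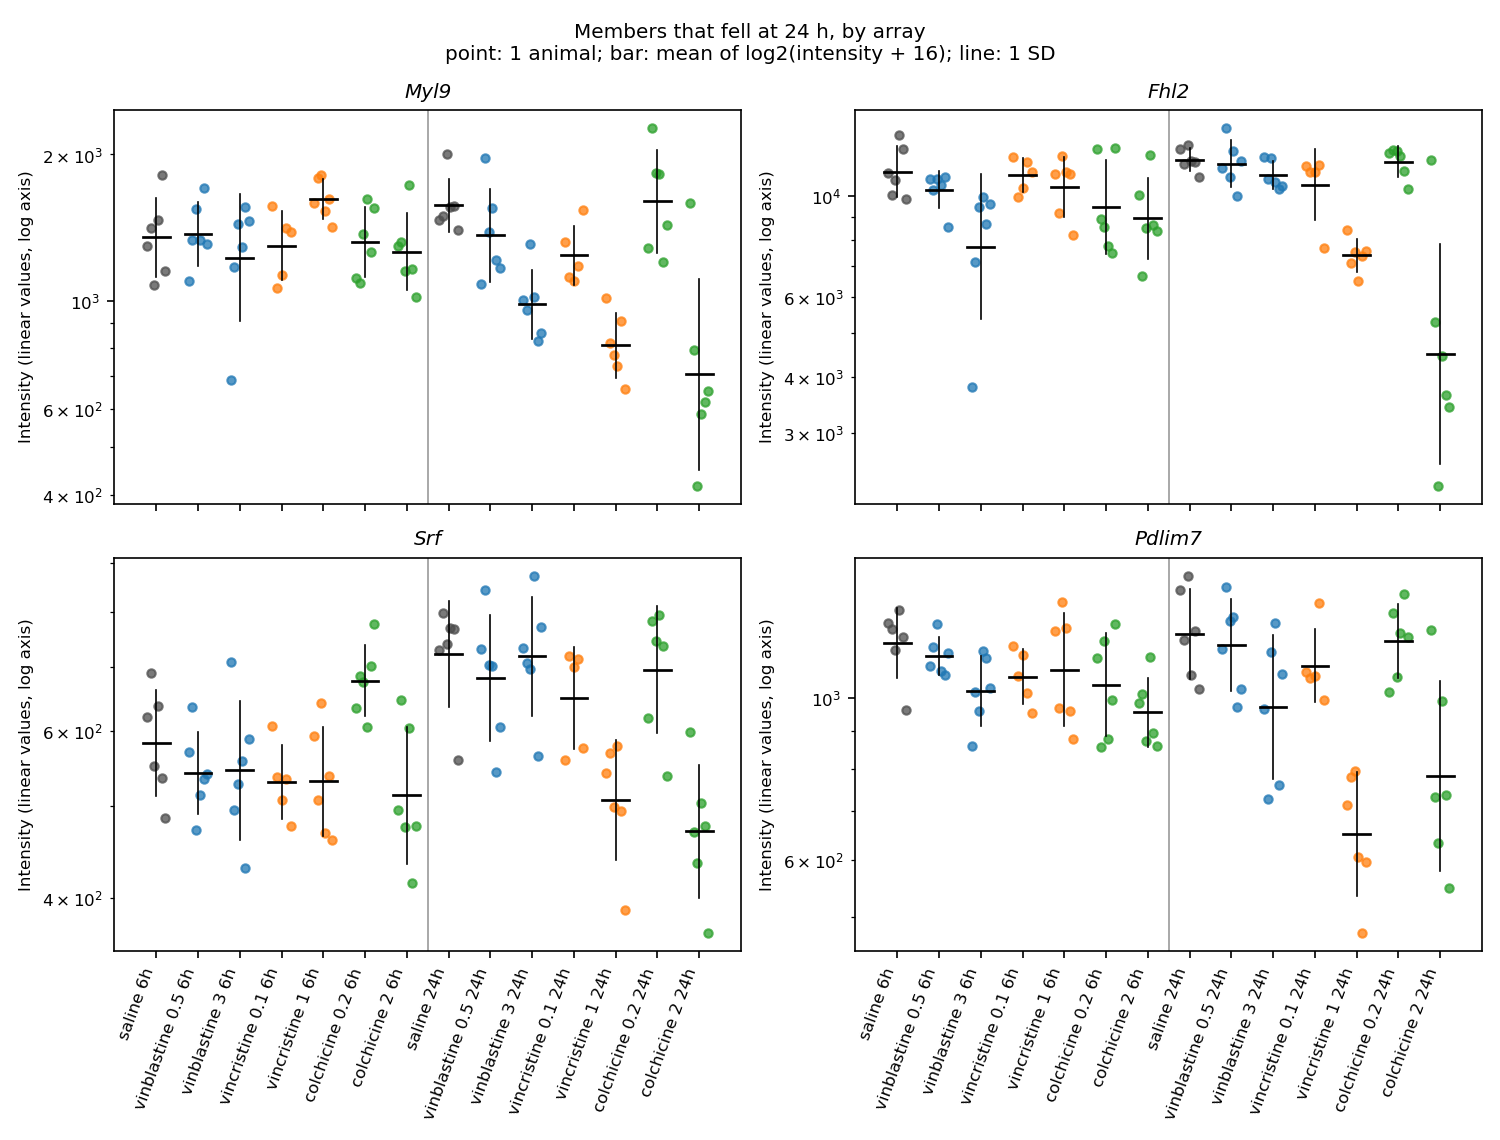
Intensity (linear values on a log axis) of Myl9, Fhl2, Srf and Pdlim7 in every animal of the 14 groups, with 6 h left and 24 h right of the grey line; points are animals, bars the mean of log2(intensity + 16) and vertical lines 1 SD of it. At 24 h Myl9, Fhl2 and Pdlim7 sit below saline in the higher-dose vincristine and colchicine groups, apart from colchicine replicate 1, with a Fhl2 value of 12022, and the Srf groups overlap saline through the saline animal at 559.

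The difference between times was tested directly, by subtracting the 6 h change from the 24 h change of a compound. For vinblastine at 3 mg/kg it was called for 7 members, all lower at 24 h, against a background of 2.66% for falls and 1.78% for rises. They were Tpm4 (-0.93), Flna (-0.86), Actn1 (-0.82), Actg1 (-0.75), Msn (-0.70), Myh9 (-0.62) and Csrp1 (-0.58). Vincristine at 1 mg/kg also had 7, all lower, where the background was 8.73% for falls and 3.53% for rises, led by Myl9 (-1.20), Tpm4 (-0.85) and Pdlim7 (-0.78). Colchicine at 2 mg/kg had 6 lower, where the background was 12.6%, led by Fhl2 (-1.08) and Myl9 (-1.04), and 3 higher, where it was 6.3%, namely Msn (0.62), Tagln2 (0.38) and Tln1 (0.36). For Ccn1, Ccn2 and Flnc the difference was not called for any compound. Without the 10 arrays it was called for Ccn2 (-1.51) and Flnc (-1.01) after vinblastine and for Ccn1 (-2.28) after vincristine, and 1 member was higher and 11 lower at 24 h for vinblastine (3.25% and 4.9% of all genes) and 13 lower for vincristine (10.7%). Saline at 24 h against saline at 6 h had 0 members called in either direction, where the background was 0.00883%.

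**Figure D5:**
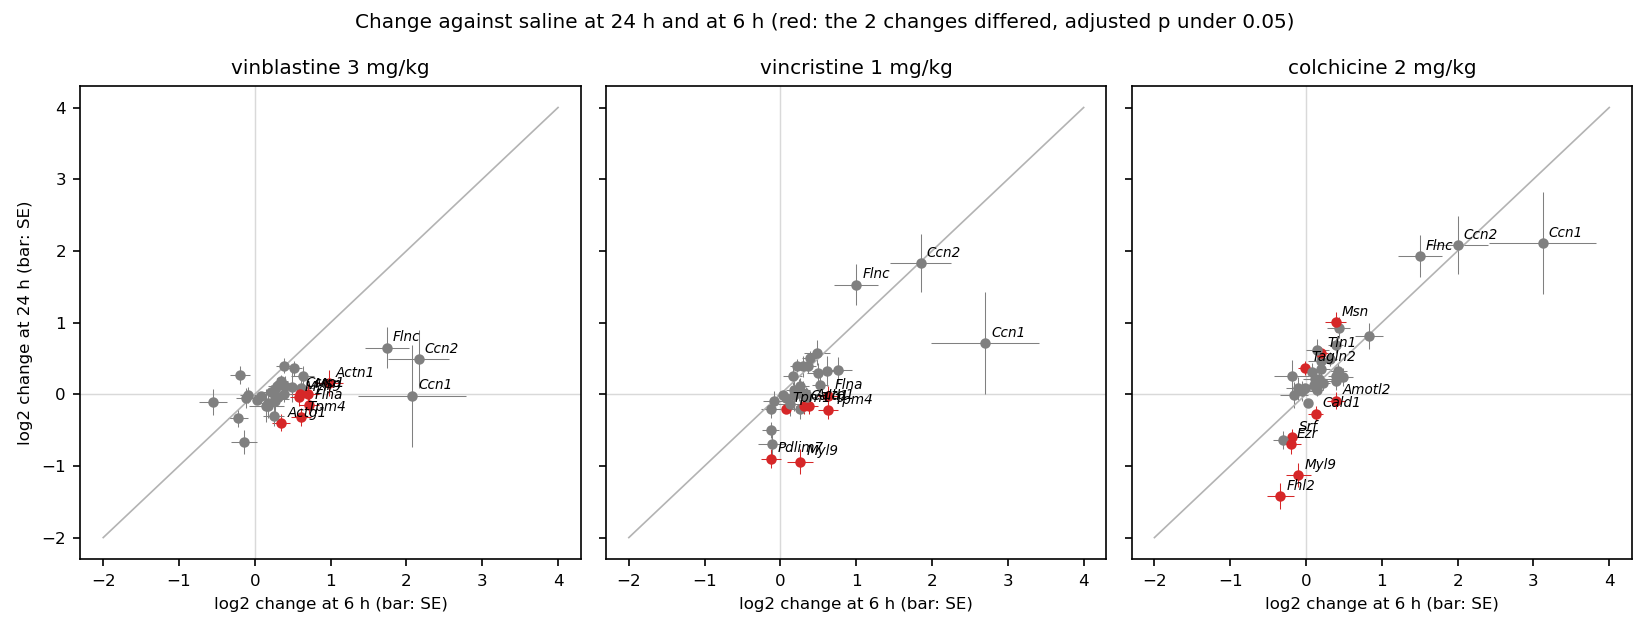
The log2 change against saline at 24 h (vertical) plotted against that at 6 h (horizontal) for each of the 36 members at the higher dose of each compound; bars are standard errors, the diagonal marks equal changes and red marks members whose changes differed between times. After vinblastine the red points lie below the diagonal with 24 h changes from -0.40 to 0.16, whereas after colchicine Msn lies above it (0.39 at 6 h, 1.01 at 24 h).

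Set against the lower dose of the same compound, the higher dose again had Ccn2, Flnc and Actn1 higher at 6 h with each compound. Vinblastine had 9 members higher at 3 than at 0.5 mg/kg, where the background was 5.81%, and 0 lower, where it was 2.71%. Vincristine had 10 higher at 1 than at 0.1 mg/kg, where it was 1.61%, and 0 lower, where it was 1.2%. Colchicine had 12 higher at 2 than at 0.2 mg/kg, where it was 4.47%, and 2 lower, Ezr and Srf, where it was 4.78%. Mean intensities of Ezr and Srf were 811 and 680 after 0.2 mg/kg, 688 and 586 in saline, and 603 and 518 after 2 mg/kg. Neither gene was called against saline at 6 h. Ccn2 was higher by 1.55, 2.10 and 1.78 and Flnc by 1.29, 1.19 and 1.70. A fit of those vinblastine groups alone gave 0, leaving out the 6 arrays with _2 in their description gave 2, and without the 10 arrays the counts of higher members were 14, 17 and 17 for vinblastine, vincristine and colchicine, where 5.7%, 6.18% and 7.83% of all genes were higher. At 24 h vinblastine had 1 member higher, Cfl2, where the background was 3.92%, and 1 lower, Actg1, where it was 1.56%. Vincristine had 8 higher (12.3%) and 4 lower (11.6%), and colchicine 12 higher (18.8%) and 7 lower (22.7%).

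At the lower doses 0 of 36 members were called against saline with any compound at either time. The background at 6 h was 0.00883% risen and 0.0265% fallen for vinblastine, 0% and 0% for vincristine, and 0.247% and 0.0265% for colchicine, and at 24 h it was 0% for each. Under an unadjusted p of 0.05 stood 1 member for each compound at 6 h, and 0, 1 and 0 at 24 h for vinblastine, vincristine and colchicine, while of all genes 5.22%, 3.9% and 6.69% did so at 6 h and 2.01%, 2.79% and 2.55% at 24 h. Single arrays labelled with a lower dose nonetheless reached the levels of the higher-dose groups. Ccn1 after vinblastine at 0.5 mg/kg, 6 h, was 1721 in replicate 6 and 52.7 to 137 in the other animals. At 24 h it was 1389 in vinblastine 0.5 mg/kg replicate 5, with the others between 52.6 and 403, and 2456 in colchicine 0.2 mg/kg replicate 6, with the others between 36.5 and 132. The same arrays had the highest Ccn2 (3347, 3776 and 4281) and Flnc (5035, 3859 and 3773) of their groups, and all 3 are among the 10 arrays. Over all genes the vinblastine arrays among them lay nearest to colchicine 2 mg/kg, 6 h. The colchicine array lay nearest to vincristine 1 mg/kg, 6 h. Why they did so was not tested. The animals given vincristine at 0.1 mg/kg had Ccn2 intensities of 585, 473, 443, 510 and 425 at 6 h and 691, 756, 732, 615 and 896 at 24 h, all within the saline ranges. Their Myl9 intensities at 24 h were 1319, 1122, 1097, 1181 and 1537, of which 4 lay below the lowest saline animal, and the change was not called. Without the 10 arrays 1 member was called at a lower dose, Fhl2, which fell by 0.47 after colchicine at 0.2 mg/kg, 6 h (adjusted p = 0.0092), where the background was 0.362% for falls.

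Other genes of the pathways, from lists drawn up with the earlier results known, showed how the members' neighbours moved at the higher doses. Counts are given in the order vinblastine, vincristine and colchicine, and stand against backgrounds of 15.7%, 2.05% and 4.89% risen and 7.67%, 1.25% and 4.37% fallen at 6 h, and 5.29%, 12% and 19.3% risen and 4.28%, 18.4% and 25.3% fallen at 24 h. Several counts lie near or below these, such as the Hippo and YAP/TAZ genes at 24 h, of which 0%, 11.8% and 17.6% rose. Of 24 tested genes of the RhoA, MRTF and SRF machinery 5, 1 and 5 rose and 2, 0 and 1 fell at 6 h, and 0, 5 and 9 rose and 1, 3 and 4 fell at 24 h. Rnd1, a small GTPase that opposes RhoA, rose most, by 2.83, 1.77 and 2.26 at 6 h and by 2.26 and 2.96 after vincristine and colchicine at 24 h. Abra, a muscle protein that binds actin and favours MRTF, rose by 1.80 after vinblastine and 2.05 after colchicine at 6 h, and by 1.27 and 1.53 after vincristine and colchicine at 24 h. Myocd, the SRF coactivator of heart and smooth muscle, named here after its values were seen, fell by 0.55 after vinblastine at 6 h and by 0.40 and 0.91 after vincristine and colchicine at 24 h.

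The other SRF targets, 16 tested, had 8, 2 and 4 risen and 0, 0 and 0 fallen at 6 h, and 0, 3 and 7 risen and 0, 2 and 1 fallen at 24 h. Immediate early genes were among them: after vinblastine at 6 h Fos rose by 1.64 and Junb by 1.14, and after colchicine at 24 h by 2.15 and 1.54. Of 14 other YAP and TEAD targets 5, 2 and 5 rose and 1, 0 and 1 fell at 6 h, and 1, 2 and 4 rose and 0, 1 and 3 fell at 24 h. Ankrd1, a stretch-responsive protein of the sarcomere, rose by 0.88, 0.59 and 0.60 at 6 h and by 0.87 and 0.95 after vincristine and colchicine at 24 h. The Hippo and YAP/TAZ machinery, 17 tested, had 5, 0 and 1 risen and 2, 1 and 0 fallen at 6 h, and 0, 2 and 3 risen and 1, 1 and 1 fallen at 24 h. There Wwtr1, which encodes TAZ, rose by 0.42 after vincristine and 0.76 after colchicine, and Tead4 by 0.33 and 0.67.

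Of 21 tested focal adhesion genes 6, 3 and 3 rose and 1, 0 and 1 fell at 6 h, and 1, 2 and 5 rose and 1, 5 and 5 fell at 24 h. Tes, a LIM protein of adhesions and stress fibres, rose by 1.08, 0.89 and 0.97 at 6 h, and Lims2, a partner of Ilk, fell by 0.85, 1.62 and 1.80 at 24 h. Of 25 actin turnover genes 10, 2 and 2 rose and 1, 0 and 0 fell at 6 h, and 2, 9 and 12 rose and 0, 3 and 3 fell at 24 h. Enah, which extends filament ends, rose by 2.12, 1.35 and 1.76 at 6 h and by 1.95 and 2.18 after vincristine and colchicine at 24 h. The non-muscle myosin list, 14 tested, had 3, 1 and 1 risen and 0, 0 and 0 fallen at 6 h, and 1, 2 and 2 risen and 1, 0 and 1 fallen at 24 h. Myl12a, a light chain close to Myl9, rose by 0.58, 0.45 and 0.42 at 6 h and by 0.48 and 0.59 after vincristine and colchicine at 24 h, when Myl9 fell.

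Markers of other cells moved beside these results, and their part in them was not tested. Of 9 neutrophil markers 6 were on the array and 3, S100a8, S100a9 and Lcn2, were tested. At 6 h 3, 1 and 3 of them rose, and the summed intensity of the 6 ran from 318 to 429 in saline, 1403 to 8167 after vinblastine, 316 to 1499 after vincristine and 336 to 1744 after colchicine. At 24 h 0, 3 and 3 rose, and the sum ran from 299 to 417 in saline, 468 to 728 after vinblastine, 1187 to 2184 after vincristine and 447 to 7450 after colchicine. Of 9 tested macrophage markers 1, 1 and 1 rose and 2, 4 and 2 fell at 6 h, and 6, 6 and 4 rose and 0, 0 and 1 fell at 24 h. Of 13 tested smooth muscle markers that are no members 2, 0 and 0 rose and 2, 0 and 0 fell at 6 h, and 2, 3 and 3 rose and 0, 3 and 5 fell at 24 h. Of single markers, picked after their values were seen, Synpo2 after colchicine at 24 h rose by 1.76 and Des by 0.53, both also expressed in heart muscle, while Smtn fell by 1.52 and Rgs5 by 1.14. The smooth muscle sum ran from 17614 to 28586 against 16229 to 18134 in saline. Of 12 fibroblast markers 2, 1 and 1 rose and 0, 0 and 0 fell at 6 h, and 2, 2 and 3 rose and 0, 5 and 8 fell at 24 h, when their sum ran from 28588 to 40767 after colchicine and 41883 to 51143 in saline. Endothelial markers, 9 tested, had 2, 1 and 1 risen and 1, 1 and 1 fallen at 6 h and 2, 4 and 5 risen and 1, 2 and 1 fallen at 24 h. Of 11 heart muscle markers 1, 0 and 0 rose and 0, 0 and 0 fell at 6 h, and 1, 1 and 1 rose and 0, 2 and 3 fell at 24 h. Red cell markers, 3 tested, had 0 risen and 1, 0 and 0 fallen at 6 h and 3, 3 and 1 fallen at 24 h. The 4 platelet and 4 lymphocyte markers tested had 0 risen, and 0, 1 and 0 and 0, 1 and 1 of them fell at 24 h, with 1 lymphocyte marker fallen after vinblastine at 6 h.

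Groups that do not overlap gave a further view of the members. After vinblastine at 3 mg/kg, 6 h, 8 members had every treated animal above every saline animal, where 4.84% of all genes did, and 0 lay wholly below, where 2.29% did. They were Ccn2, Actn1, Flnc, Zyx, Tln1, Csrp1, Myh9 and Msn. For vincristine at 1 mg/kg, 6 h, the 4 such members were Ccn1, Csrp1, Cnn3 and Msn, where the share over all genes was 0.654%, and for colchicine at 2 mg/kg it was Ccn1 alone, where the share was 0.689%. At 24 h there were 3 above and 2 below for vinblastine (3.66% and 2.64% of all genes), 4 and 3 for vincristine (8.33% and 11.8%) and 7 and 0 for colchicine (4.13% and 4.48%). The colchicine group at 24 h includes replicate 1, which lay within the saline range for Fhl2 and Myl9.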

How the data were processed

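Gene expression was measured on Affymetrix rat arrays from 82 hearts in 14 groups. RNA was extracted with a Qiagen kit, per the labels' protocols. The authors deposited linear intensity values for 31099 probe sets, and the sources used here do not name the normalization or software behind them. The median intensity per array lay between 57.6 and 63.3, and the number of arrays limits the precision. Probe sets were named through the platform annotation: 20826 have 1 symbol, 436 several, 9780 none listed and 57 are controls. Each of 14217 genes was represented by its probe set with the highest mean, since 4525 genes have several. Genes above the 40th percentile of their array on at least 5 arrays were tested, 11319 in all. Values were taken as log2(intensity + 16) and fitted in limma 3.58.1 (R 4.3.3, with version 1.17.8 of data.table) with group means over all arrays, moderated tests and Benjamini-Hochberg adjustment over 11319 genes, in 25 comparisons. The script was tested on simulated data. Labels number the animals of a group. Deviations of same-numbered animals correlated over 0.1 in 20 of 70 pairs, but in no comparison for every pair, so no pairing was used. Members and all gene and marker lists were chosen with earlier results of these data known. Every member past the threshold could be named, with ranges for those of largest change, and up to 3 genes of largest change per pathway list and comparison. Alternatives were another pseudocount, filters, normalizations, probe set averaging, fewer groups, array weights, a replicate block and left-out arrays. No comparison between compounds was tested, since doses differ.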

Additional observations from a re-analysis of the deposited data

Results flagged for a closer look

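Single animals that stood apart from the rest of their group by Dixon's criterion were found in 30 of 168 pairs of member and group examined, over 12 members and 14 groups. For independent pairs chance alone would give about 1 in 20. These pairs share their arrays, and the members were chosen with earlier results known, so that figure is no yardstick for the 30. Most of the 30 are on the 10 arrays set apart above.

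Ccn1 was high in vinblastine 0.5 mg/kg replicate 6 at 6 h (1721), vincristine 1 mg/kg replicate 4 at 6 h (3184), colchicine 0.2 mg/kg replicate 4 at 6 h (338) and colchicine 0.2 mg/kg replicate 6 at 24 h (2456). It was low in colchicine 2 mg/kg replicate 4 at 6 h (95.3). That last array was also low for Ccn2 (494) and Actn1 (250).

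Ccn2 was high in vinblastine 0.5 mg/kg replicate 5 at 24 h (3776), vinblastine 3 mg/kg replicate 1 at 6 h (4594) and colchicine 0.2 mg/kg replicate 6 at 24 h (4281). Actn1 was high in the first and last of these arrays (600 and 542), and so was Flnc (3859 and 3773). Flnc was also high in vinblastine 0.5 mg/kg replicate 6 at 6 h (5035) and low in colchicine 2 mg/kg replicate 1 at 24 h (1739). Zyx was high in vinblastine 0.5 mg/kg replicate 5 at 24 h (925).

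Vinblastine 3 mg/kg replicate 1 at 6 h was high for Msn (5220) and Cfl2 (7661) and low for Flna (1416), Myl9 (687) and Fhl2 (3799). Vincristine 1 mg/kg replicate 6 at 24 h was low for Zyx (587) and Msn (1544), and Msn was low in colchicine 2 mg/kg replicate 1 at 24 h (1872). Fhl2 was low in vinblastine 0.5 mg/kg replicate 6 at 6 h (8564) and vincristine 0.1 mg/kg replicate 5 at 24 h (7697). In saline at 24 h Tpm4 (2396) and Myl9 (2005) were high in replicate 3 and Srf (559) was low in replicate 6.

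The 24 h change less the 6 h change passed the threshold of limma's test for 23 results. After vinblastine these were Actg1 (-0.75, adjusted p = 0.00709), Actn1 (-0.82, 0.0427), Flna (-0.86, 0.00295), Csrp1 (-0.58, 0.0244), Tpm4 (-0.93, 0.00188), Myh9 (-0.62, 0.0297) and Msn (-0.70, 0.0297). After vincristine they were Actg1 (-0.54, adjusted p = 0.0286), Flna (-0.65, 0.0112), Pdlim7 (-0.78, 0.00226), Tpm1 (-0.28, 0.00623), Tpm4 (-0.85, 0.00129), Cald1 (-0.49, 0.0208) and Myl9 (-1.20, 0.000571). After colchicine they were Amotl2 (-0.49, adjusted p = 0.0323), Srf (-0.43, 0.0437), Fhl2 (-1.08, 0.00135), Tln1 (0.36, 0.0348), Tagln2 (0.38, 0.0435), Cald1 (-0.40, 0.0482), Myl9 (-1.04, 0.00136), Msn (0.62, 0.0212) and Ezr (-0.51, 0.0425).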

How the results depend on the processing

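For the 81 called member changes, 1770 alternative values kept their direction and side of the threshold, 172 kept the direction and lost the call, and 1 reversed: Pdlim7 after colchicine at 24 h, at 0.10 when probe sets were averaged. Causes were not tested. When only the compared groups were fitted, after vinblastine 11 members rose and 0 fell at 6 h and 4 rose at 24 h, 1 fell after colchicine at 6 h, 0 differed between vinblastine doses at 6 h, and 3 differed between times for colchicine. Quantile normalization left 7 risen after vincristine at 6 h and 3 that differed between times. With probe sets averaged, 1 rose after vinblastine and 4 fell after colchicine at 24 h, and 4 differed between times for vincristine. Without a filter 5 differed between times for colchicine. With array weights, after vinblastine 4 rose and 6 fell at 24 h, 11 rose after vincristine at 24 h, 3 fell after colchicine at 6 h, 1 was called after vincristine at 0.1 mg/kg, 24 h, 16 and 21 differed between vincristine doses at 6 h and 24 h, 4 between vinblastine doses at 24 h, and 11 between times for vinblastine. Without the 10 arrays, 3 fell after colchicine at 6 h, 4 after vinblastine at 24 h, 1 was called after colchicine at 0.2 mg/kg, 6 h, 14 and 17 differed between vinblastine and vincristine doses at 6 h, 5 between vinblastine doses at 24 h, and 12 and 13 between times for vinblastine and vincristine. Without the 6 arrays ending in _2, 0 fell after vinblastine at 6 h, and 2 and 6 differed between vinblastine and vincristine doses at 6 h.

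With each animal left out in turn, risen members numbered 14 to 22, 3 to 13 and 7 to 13 at 6 h for vinblastine, vincristine and colchicine, and 2 to 2, 6 to 8 and 13 to 15 at 24 h. Fallen members numbered 0 to 1, 0 to 0 and 0 to 0 at 6 h, and 1 to 2, 5 to 5 and 5 to 7 at 24 h. Deviations of 70 same-numbered pairs correlated between -0.38 and 0.45, with 20 over 0.1 and no comparison in which every pair was. With a replicate block 20, 11 and 11 members rose at 6 h, as without it.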
